A study of Mus musculus with 13 samples.

Results

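The genes described here are 24 collagen chains and 17 proteins that fold, modify, cleave or crosslink collagen, 41 of the 57010 genes counted in an RNA-Seq of mouse embryonic fibroblasts (MEFs). They were named by symbol, and each symbol was matched to 1 gene of the mouse annotation. All 41 passed the filter on low counts, which left 15034 genes.

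The RNA-Seq asked how senescent MEFs differ from control MEFs and how Fucoidan-FV, a sulfated sugar polymer from brown algae, alters senescent MEFs. All MEFs were wild type (WT) and came from mice numbered 4, 5 and 6 in every group. Control MEFs were untreated, and the senescent MEFs had been given 2 μM etoposide, a topoisomerase inhibitor that breaks DNA, for 24 h and then normal medium for 5 days. The senescent MEFs were left untreated or received 100 μg/mL of Fucoidan-FV, or 300 μg/mL of it, and RNA was taken after 12 h of treatment. Each group therefore has 3 mice, and control mouse 5 has a pair of libraries, 5(1) and 5(2), which were summed. MEFs are primary cultures of minced embryos without viscera, not clones, and no group received Fucoidan-FV without etoposide. In bulk RNA, fewer cells of a type and less RNA per cell cannot be told apart.

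Collagens are triple helices of 3 chains. Fibril-forming chains (types I, II, III, V, XI and XXVII) make the fibers of connective tissue, type IV and VIII chains make sheets, type VI makes beaded filaments, type VII anchors epithelium to the dermis, and types XII, XIV and XVI attach to fibril surfaces. Inside the cell, prolyl hydroxylases (P4ha, P3h1 with its partner Crtap) and lysyl hydroxylases (Plod) modify the chains, and Serpinh1 (HSP47) holds the helix together on its way out. Outside the cell, Bmp1 removes the C-propeptide with the help of Pcolce and Pcolce2, and lysyl oxidases (Lox, Loxl1 to Loxl4) start the crosslinks. Fibroblasts are the main source of these proteins in most tissues.

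For 4 members the call held in every setting tried: Col2a1 and Col5a3 in senescent against control MEFs, and Col11a1 and Col15a1 at both doses of Fucoidan-FV. The 250 bases before the start of their canonical transcript were read from GRCm39 with the GENCODE annotation and are printed 5′ to 3′ on the strand of the gene, since these are the members whose difference depended least on the settings. Capitals mark GC boxes (GGGCGG) and CCAAT boxes (CCAAT), on either strand.
Col2a1, chr15:97902690-97902939, minus strand: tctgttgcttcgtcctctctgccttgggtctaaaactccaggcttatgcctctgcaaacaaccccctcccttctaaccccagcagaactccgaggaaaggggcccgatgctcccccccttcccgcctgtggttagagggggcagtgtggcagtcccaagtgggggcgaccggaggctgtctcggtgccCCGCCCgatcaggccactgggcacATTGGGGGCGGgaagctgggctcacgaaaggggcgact
Col5a3, chr9:20726419-20726668, minus strand: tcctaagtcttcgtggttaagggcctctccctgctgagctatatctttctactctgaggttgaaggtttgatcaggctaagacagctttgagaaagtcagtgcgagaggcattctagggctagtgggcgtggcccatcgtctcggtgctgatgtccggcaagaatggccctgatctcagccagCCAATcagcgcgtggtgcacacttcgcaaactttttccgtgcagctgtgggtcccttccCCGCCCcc
Col11a1, chr3:113823884-113824133, plus strand: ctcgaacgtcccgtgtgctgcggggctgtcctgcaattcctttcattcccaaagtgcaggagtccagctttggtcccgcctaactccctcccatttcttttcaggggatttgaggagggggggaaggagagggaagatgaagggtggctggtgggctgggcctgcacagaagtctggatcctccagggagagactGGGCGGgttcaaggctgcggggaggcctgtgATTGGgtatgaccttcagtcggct
Col15a1, chr4:47207332-47207581, plus strand: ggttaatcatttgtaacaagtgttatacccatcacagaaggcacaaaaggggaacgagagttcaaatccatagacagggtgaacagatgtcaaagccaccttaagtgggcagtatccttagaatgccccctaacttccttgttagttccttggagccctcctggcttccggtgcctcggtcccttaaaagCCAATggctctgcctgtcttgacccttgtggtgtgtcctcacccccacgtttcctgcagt
The Col2a1 window held 2 GC boxes, the second of which adjoins a CCAAT box, and the windows of Col5a3 and Col11a1 held 1 of each. The Col15a1 window held a CCAAT box and no GC box. Over the 41 members, 25 windows (61.0%) held a GC box, against 36.4% of 21664 promoters of protein-coding genes. A CCAAT box was found in 14 member windows (34.1%, against 36.5% of all), and a TATA box (TATAAA, either strand) in 4 (9.76%, against 11.9%). The AP-1 letters TGACTCA were found on neither strand of any of the 41 windows and in 4.03% of all promoters. These are matches of letters, not measured sites.

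The libraries held 22782536 to 31278750 counts. They differed in the counts of genes rich in single-transcript sequence, the exonic bases that belong to only 1 annotated transcript of a gene. For the 2229 genes where these are over 95% of the exonic bases, the median log2 deviation ran from −1.57 (control mouse 6) to 1.26 (mouse 5 at 100 μg/mL), and it was −1.23 in library 5(1) and 0.73 in library 5(2) of the same mouse. The library of senescent mouse 6 stood apart. This was read from genes with under 50% single-transcript sequence. Of these, its 1564 genes with over 8 kb of exon lay at −0.77 and its 684 genes under 2 kb at 0.80. The other libraries lay between −0.29 and 0.30 and between −0.31 and 0.08. Many collagen transcripts are long, so results are also given without senescent mouse 6. An alternative with offsets per gene and library for single-transcript share, length and GC content is named where it changes a call. The fibroblast markers were counted in all groups, 10 of 10, with a summed level of 7078 to 8431 TPM (RSEM's level per length) in control, 10277 to 12901 in senescent, and 7578 to 10168 and 8019 to 10057 TPM in the treated MEFs.

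Levels of different genes were compared per length, in TPM. Over the 4 groups, Lox was the most abundant member (mean 2840 TPM), followed by Col1a2 (2020), Serpinh1 (1843), Col3a1 (1746), Pcolce (938) and Col1a1 (768 TPM). At the other end stood Col4a6 (1.23), Col8a2 (3.97), Col27a1 (6.61), Pcolce2 (6.71) and Col15a1 (6.89 TPM). RSEM sets the length of a gene in each library from the transcripts it finds, and this length ran from 1196 to 1921 bases for Col3a1 and from 3538 to 7949 bases for Col12a1, so part of a difference in TPM can come from it. The 24 chains together took 0.715% ± 0.0656 (SD, n = 3 mice) of TPM in control MEFs, 0.616% ± 0.0832 in senescent MEFs, 1.06% ± 0.0786 at 100 μg/mL and 1.01% ± 0.153 in MEFs given 300 μg/mL. For the 17 processing genes the shares were 0.672% ± 0.0765, 0.713% ± 0.114, 1.02% ± 0.106 and 1.04% ± 0.0481. These sums are a description and were not tested. In TPM, each treated mouse lay above all control and senescent mice in both sums. As a percent of counts this held for the processing genes but not for the chains, where mouse 4 at 300 μg/mL (1.52%) lay below control mice 4 (1.80%) and 5 (1.91%). Lox weighs heavily in the processing sums, with a mean of 1317 TPM in control, 2047 in senescent, 3920 at 100 μg/mL and 4077 at 300 μg/mL. These sums therefore do not show how most of the 17 genes moved.

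**Figure D1:**
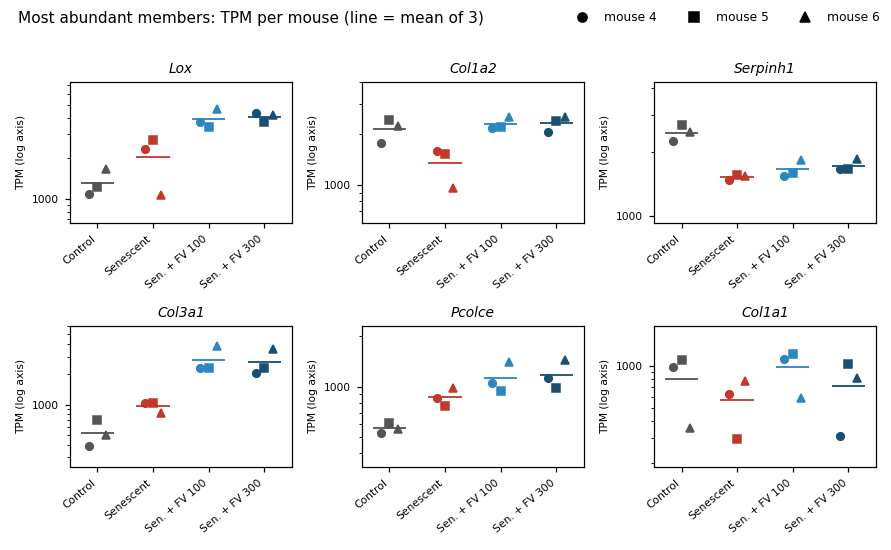
TPM (log axis) of the 6 most abundant members in each mouse of the 4 groups, with circles for mouse 4, squares for mouse 5, triangles for mouse 6 and a line at the mean of 3 mice. All treated mice lie above all senescent mice for Lox and Col3a1, and Col1a1 spreads from 298 to 1213 TPM with overlap of all groups.

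Lox, which oxidizes lysines of collagen for crosslinking, stood at 1085, 1213 and 1653 TPM in control mice 4, 5 and 6 and at 2350, 2734 and 1057 TPM in senescent mice. It stood at 3747, 3384 and 4630 TPM at 100 μg/mL and at 4323, 3736 and 4173 TPM at 300 μg/mL. Senescent mouse 6 lay with the controls, and in TPM all treated mice lay above both other groups. In CPM (the count relative to library size after TMM scaling) they did not at 100 μg/mL, where mice 4 and 5 (8908 and 7907 CPM) lay below senescent mouse 5 (9224 CPM). In counts the difference of senescent from control MEFs was 0.54 ± 0.30 (log2 fold change ± SE, adjusted p = 0.29, edgeR's quasi-likelihood test with Benjamini-Hochberg adjustment as for all adjusted p given here), or 0.80 without senescent mouse 6 (adjusted p = 0.0319). At 100 and 300 μg/mL, Lox differed from senescent MEFs by 0.56 ± 0.30 (adjusted p = 0.334) and 0.75 ± 0.30 (adjusted p = 0.249).

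Of the type I chains, Col1a2 stood at 1770, 2419 and 2204 TPM in control mice, at 1589, 1513 and 960 TPM in senescent mice, at 2149, 2181 and 2521 TPM at 100 μg/mL and at 2040, 2383 and 2514 TPM at 300 μg/mL. Every senescent mouse lay below every other mouse. In counts, Col1a2 exceeded senescent MEFs by 0.44 ± 0.18 for the lower dose and 0.38 ± 0.18 for the higher. Neither difference passed, with adjusted p values of 0.197 and 0.339. Col1a1, the other chain of the same molecule, stood at 976, 1095 and 356 TPM in control mice, at 630, 298 and 772 TPM in senescent mice, at 1124, 1213 and 588 TPM at 100 μg/mL and at 310, 1032 and 822 TPM at 300 μg/mL. These ranges overlapped in all groups. Per mouse, the ratio of Col1a1 to Col1a2 in TPM ran from 0.152 to 0.804.

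Of the sequence of Col1a1, 91.5% lies in a single transcript, and Col1a1 was lowest in the 4 libraries with the lowest median of the 2229 genes. Its level was 950 CPM, here scaled by the library total alone, in library 5(1) and 5976 in library 5(2) of control mouse 5. The same was seen for Loxl1 (100% single-transcript sequence), at 37.3 and 265, and for Col8a1 (99.0%), at 23.2 and 189 CPM on that scale. Pcolce2 (91.0%) followed the shift only in part, with a log2 deviation of 0.97 in control mouse 6 and 0.66 in senescent mouse 5, both low libraries. In other low libraries it was −2.56, its lowest, in mouse 4 at 300 μg/mL and 0.07 in 5(1), against 1.31 in 5(2). The difference between 2 libraries of 1 mouse was thus larger than that between any pair of group means of Col1a1 and Loxl1. Their SEs of 0.60 and 0.68 (log2, senescent against control MEFs) were among the widest of the members, and no call was made for Col1a1 or Loxl1 in any comparison.

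**Figure D2:**
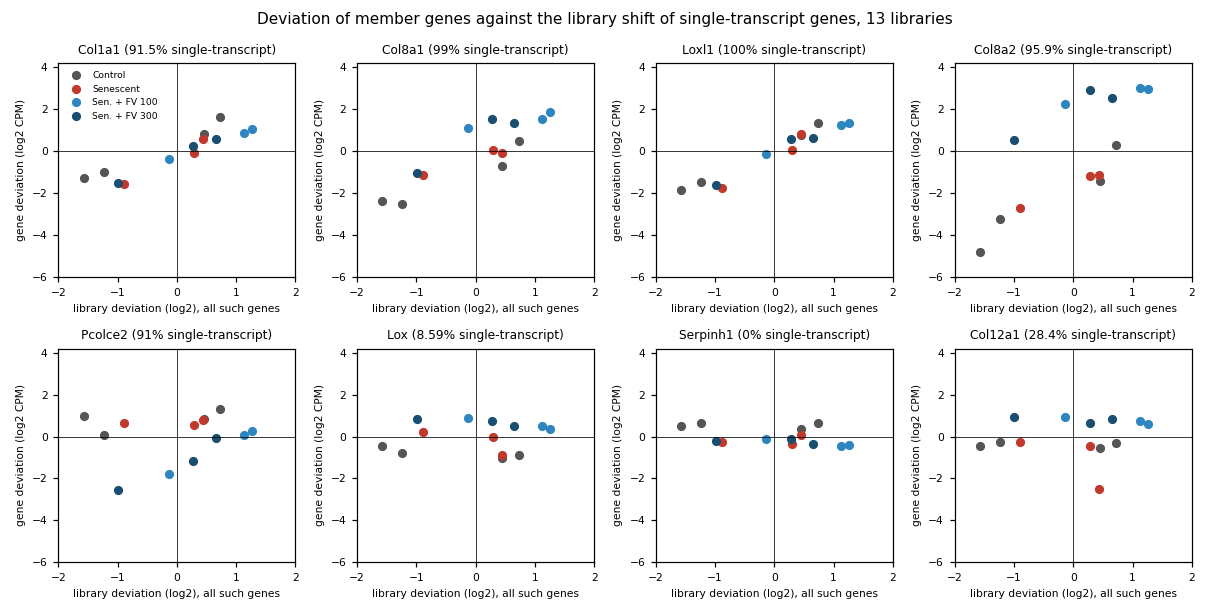
Deviation of 8 members from their own mean over the 13 libraries (log2 CPM by library total) against the median deviation of the 2229 genes with over 95% single-transcript sequence in the same library (log2), with colors for the 4 groups. Col1a1, Col8a1 and Loxl1 are lowest in libraries at the left, while Lox and Serpinh1 with 8.59% and 0% such sequence are not. Pcolce2 with 91.0% is lowest in a library at the left, mouse 4 at 300 μg/mL, but high in control mouse 6. Col8a2 is set apart by treatment, and the low Col12a1 point is senescent mouse 6.

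Serpinh1, the collagen chaperone, stood at 2244, 2682 and 2483 TPM in control, 1481, 1555 and 1545 TPM in senescent, 1546, 1591 and 1825 TPM at 100 μg/mL and 1653, 1662 and 1845 TPM at 300 μg/mL. All control mice lay above all others. Pcolce, which enhances removal of the C-propeptide, stood at 531, 604 and 562 TPM in control, 856, 768 and 981 TPM in senescent, 1051, 948 and 1398 TPM at 100 μg/mL and 1126, 983 and 1444 TPM at 300 μg/mL. The control mice were the lowest, and the test of Pcolce gave 0.64 ± 0.26 for senescent against control MEFs (adjusted p = 0.142). Treated against senescent MEFs, Pcolce was nearly level in counts, with −0.05 ± 0.26 for the lower dose and 0.15 ± 0.26 for the higher. These had adjusted p values of 0.948 and 0.857, and in CPM each treated group overlapped the senescent mice.

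In senescent against control MEFs, 5 of the 41 members were DEGs (adjusted p under 0.05 and absolute log2 fold change over 1), with 1 higher and 4 lower. That is 12.2% of the members, where 8.42% of all genes tested were DEGs (4.47% higher and 3.95% lower). Senescent and control values were apart, with no overlap, for 11 members, or 26.8%, against 27.1% of all genes. The median log2 fold change was −0.13 over the members and 0.07 over all genes. The lower genes were the fibril chains Col2a1 and Col5a3, the type VI chain Col6a3 and the lysyl oxidase Loxl4, and the higher gene was the type IV chain Col4a6. By adjusted p alone 7 members passed, against 11.7% of all genes, and the others were Col1a2 (−0.65 ± 0.18, adjusted p = 0.0338) and Serpinh1 (−0.72 ± 0.20, adjusted p = 0.0338).

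**Figure D3:**
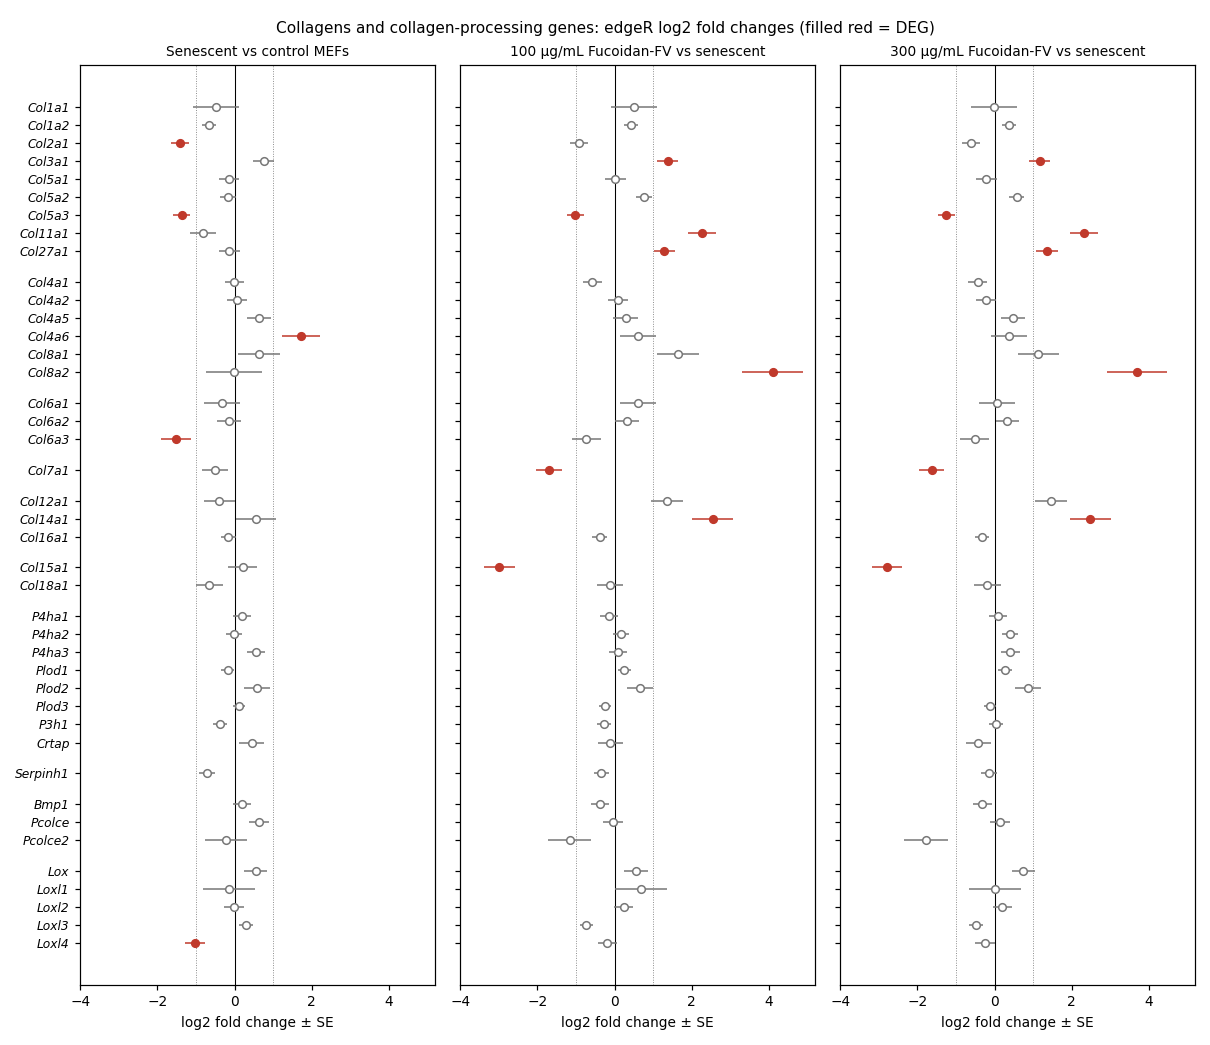
Log2 fold change ± SE (x axis) of each of the 41 members in senescent against control MEFs and in each dose of Fucoidan-FV against senescent MEFs, ordered by role from fibril-forming chains to lysyl oxidases. Filled red points are the 5, 8 and 8 DEGs, dotted lines mark a log2 fold change of −1 and 1, and both panels of treated MEFs use the same senescent libraries.

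Col2a1, the main fibril chain of cartilage, stood at 853, 689 and 616 CPM in control mice 4, 5 and 6 and at 218, 249 and 348 CPM in senescent mice. All senescent mice lay below all controls, and Col2a1 fell by −1.41 ± 0.23 (adjusted p = 0.00183). Col5a3, a minor fibril chain, stood at 172, 172 and 273 CPM in control mice and at 69.2, 77.1 and 92.6 CPM in senescent mice. The groups did not overlap, and Col5a3 fell by −1.37 ± 0.22 (adjusted p = 0.00165). Over 26 settings the log2 fold change ran from −1.92 to −1.28 for Col2a1 and from −1.67 to −1.10 for Col5a3, with each call kept.

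Col6a3 stood at 1754, 1349 and 1189 CPM in control mice and at 749, 532 and 217 CPM in senescent mice, the lowest being mouse 6. It fell by −1.52 ± 0.38 (adjusted p = 0.0209), and by −1.14 without senescent mouse 6 (adjusted p = 0.0204). The call was lost without control mouse 4 (adjusted p = 0.077) and without senescent mouse 5 (adjusted p = 0.0572). The other type VI chains, Col6a1 and Col6a2, differed by −0.32 ± 0.46 and −0.14 ± 0.31. In TPM, Col6a1 stood at 0.591 to 0.962 times Col6a2 in the 12 mice, while Col6a3 went from 282 to 397 TPM in control mice to 64.7 to 179 TPM in senescent mice.

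Loxl4 stood at 78.1, 92.1 and 103 CPM in control mice and at 53, 55.9 and 26.1 CPM in senescent mice. It fell by −1.02 ± 0.26 (adjusted p = 0.0208) without overlap of the groups. Without senescent mouse 6 the change was −0.74 (adjusted p = 0.00584), short of the fold threshold, and the call was also lost without control mouse 5 (adjusted p = 0.0536) or control mouse 6 (adjusted p = 0.0576).

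Col4a6 was rare, at 1.02, 0.667 and 0.893 CPM in control mice and 3.29, 3.62 and 1.53 CPM in senescent mice. In CPM all senescent mice lay above the controls, and Col4a6 rose by 1.71 ± 0.49 (adjusted p = 0.0386). In TPM the groups overlapped, at 0.32, 0.16 and 1.43 TPM in control mice and 1.14, 1.02 and 0.36 TPM in senescent mice. The call held in 11 of 26 settings. With the mouse as a block the adjusted p was 0.0622, and leaving out any of the control mice, senescent mouse 4 or 5, mouse 4 or 5 at 100 μg/mL or mouse 5 or 6 at 300 μg/mL gave 0.0575 to 0.128.

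Serpinh1 rested below the fold threshold in counts, with 3311, 4157 and 3902 CPM in control mice and 1937, 2285 and 2676 CPM in senescent mice. With the offsets its change was −1.20 (adjusted p = 0.000767), past the threshold. For Col1a2 the offsets gave −0.53 (adjusted p = 0.127). Of the members that were not DEGs, the fibril chains ran from −0.82 (Col11a1, adjusted p = 0.158) to 0.76 (Col3a1, adjusted p = 0.0966), and the 8 hydroxylases with Crtap from −0.39 (P3h1) to 0.57 (Plod2).

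With 100 μg/mL Fucoidan-FV, 8 of the 41 members were DEGs against untreated senescent MEFs, 5 higher and 3 lower. That is 19.5% of the members, where 2.69% of all genes were DEGs (1.1% higher and 1.6% lower). With 300 μg/mL the same 8 members were DEGs in the same directions, 19.5% against 1.64% of all genes (0.752% higher and 0.885% lower). By adjusted p alone 10 members passed at 100 μg/mL, against 4.02% of all genes, and 8 at 300 μg/mL, against 1.9%. Both comparisons use the same senescent libraries, so each dose is given with its own values and the doses are not 2 independent tests. Higher at both doses were the fibril chains Col3a1, Col11a1 and Col27a1, the network chain Col8a2 and the fibril-associated chain Col14a1. Lower were the fibril chain Col5a3, the anchoring-fibril chain Col7a1 and the multiplexin Col15a1. By role, 4 of 9 fibril-forming chains, 1 of 6 network-forming chains, 1 of 3 fibril-associated chains, 1 of 2 multiplexins and the anchoring-fibril chain were DEGs at each dose, and 0 of 3 type VI chains and 0 of 17 processing genes. The 8 hydroxylases with Crtap ran from −0.28 (P3h1) to 0.67 (Plod2) at 100 μg/mL and from −0.42 (Crtap) to 0.87 (Plod2) at 300 μg/mL. DESeq2 made 9 calls at 100 μg/mL, 7 of them higher, where it called 5.53% of the 15034 genes and 3.5% as higher. It made 10 calls at 300 μg/mL, 6 of them higher, where it called 4.22% of the genes and 2.36% as higher.

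The values did not overlap for 18 members at 100 μg/mL (43.9%, against 26.2% of all genes). At 300 μg/mL this held for 20 members (48.8%, against 19.6% of all genes). The median log2 fold change was 0.10 over the members and −0.02 over all genes at 100 μg/mL, and 0.06 and 0.00 at 300 μg/mL.

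**Figure D4:**
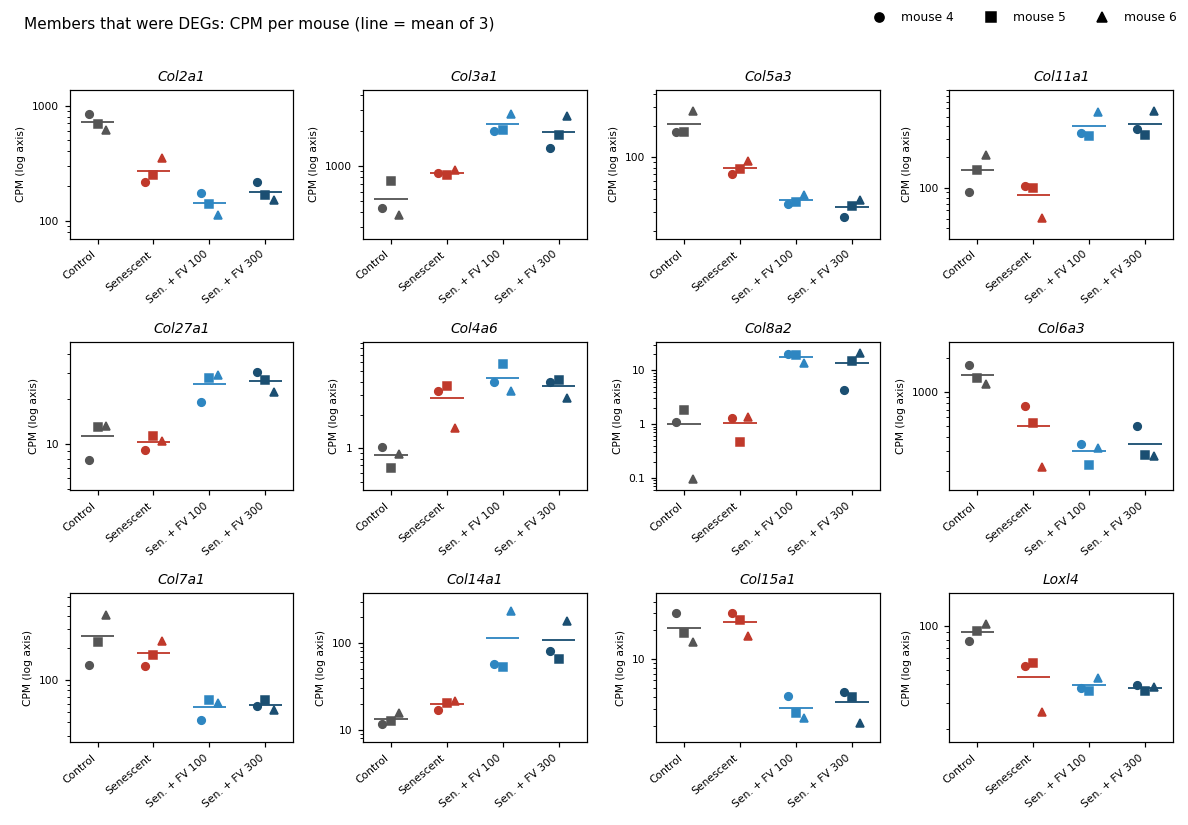
CPM (log axis) in each mouse of the 4 groups for the 12 members that were DEGs in senescent against control MEFs or at either dose, with circles, squares and triangles for mice 4, 5 and 6 and a line at the mean of 3 mice. Col11a1, Col8a2, Col14a1 and Col27a1 lie higher in every treated mouse than in any senescent mouse, and Col15a1, Col7a1 and Col5a3 lie lower.

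Col11a1, a chain of the thin fibrils of cartilage that sets fibril diameter, stood at 90, 151 and 207 CPM in control mice and at 105, 98.5 and 50.9 CPM in senescent mice. It stood at 344, 322 and 550 CPM at 100 μg/mL and at 373, 329 and 568 CPM at 300 μg/mL. Every treated mouse lay above every control and senescent mouse. Col11a1 rose by 2.26 ± 0.36 (4.78-fold, adjusted p = 0.00648) and by 2.32 ± 0.36 (5.00-fold, adjusted p = 0.00779), and without senescent mouse 6 by 2.12 and 2.10 (adjusted p = 0.0138 and 0.0173). Over 26 settings the log2 fold change ran from 1.96 to 2.59 at 100 μg/mL and from 2.01 to 2.58 at 300 μg/mL.

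Col2a1, which forms cartilage fibrils together with Col11a1, had other values. It stood at 175, 140 and 112 CPM at 100 μg/mL, below all senescent mice, and at 217, 168 and 151 CPM at 300 μg/mL. The difference from senescent MEFs was −0.93 ± 0.23 (adjusted p = 0.0439) and −0.60 ± 0.23 (adjusted p = 0.221), and without senescent mouse 6 the former was −0.54 (adjusted p = 0.285). Of 8 chondrocyte markers, 6 had counts in control, senescent and 100 μg/mL MEFs and 7 at 300 μg/mL. Their summed level was 0.95 to 7.5 TPM in control, 1.31 to 10.2 TPM in senescent, 17.4 to 66.5 TPM at 100 μg/mL and 17.2 to 54.4 TPM at 300 μg/mL. In this sum every treated mouse lay above every control and senescent mouse. The cartilage markers Matn1 and Snorc were at 0 in control, senescent and 100 μg/mL MEFs, and Snorc also at 300 μg/mL. Of the 4 chondrocyte markers that were tested, 3 were higher and 1 lower at each dose. Their median log2 fold change was 1.26 at 100 μg/mL and 0.53 at 300 μg/mL, and 0 were DEGs at either dose (1 at an unadjusted p under 0.05 at each). The part of such cells in the Col11a1 result was not tested.

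Col3a1, the type III fibril chain of skin and vessels, stood at 431, 736 and 381 CPM in control mice, 861, 838 and 919 CPM in senescent mice, 1994, 2040 and 2777 CPM at 100 μg/mL and 1416, 1820 and 2651 CPM at 300 μg/mL. Each treated mouse lay above each senescent mouse, and each of these above each control. It rose by 1.38 ± 0.28 (2.60-fold, adjusted p = 0.0164) and by 1.17 ± 0.28 (2.25-fold, adjusted p = 0.0488). At 100 μg/mL the call was lost without treated mouse 6 (1.21, adjusted p = 0.0611). At 300 μg/mL it held in 12 of 26 settings, with an adjusted p of 0.0715 with the mouse as a block, 0.0683 with the offsets, 0.0753 without senescent mouse 6, and 0.0711 to 0.233 without senescent mouse 4 or 5, mouse 4 or 5 at 100 μg/mL or mouse 5 or 6 at 300 μg/mL.

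Col27a1, a fibril chain of developing cartilage, stood at 7.9, 13 and 13.3 CPM in control, 9.11, 11.4 and 10.6 CPM in senescent, 19.3, 27.8 and 29 CPM at 100 μg/mL and 30.2, 27 and 22.5 CPM at 300 μg/mL. Treated mice lay above all others, and Col27a1 rose by 1.29 ± 0.28 (adjusted p = 0.0225) and 1.36 ± 0.28 (adjusted p = 0.0263). Without senescent mouse 6 the changes were 1.45 and 1.42. The call was lost without mouse 5 or 6 at 100 μg/mL (adjusted p = 0.103 and 0.0718), and at 300 μg/mL without senescent mouse 4 or any treated mouse (adjusted p of 0.0542 to 0.0842).

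Col5a3 stood at 35.9, 37.7 and 44.1 CPM at 100 μg/mL and at 27.1, 34.7 and 38.9 CPM at 300 μg/mL, below the 69.2 to 92.6 CPM of senescent mice. It fell by −1.02 ± 0.22 (adjusted p = 0.0248) and −1.25 ± 0.22 (adjusted p = 0.014). At 100 μg/mL the change was close to the fold threshold and was called in 11 of 26 settings, with −0.75 without senescent mouse 6 (adjusted p = 0.123), −0.87 without control mouse 4, 5 or 6, and an adjusted p of 0.0526 to 0.124 without senescent mouse 4 or 5 or any treated mouse. At 300 μg/mL the call held without senescent mouse 6 (−1.07, adjusted p = 0.0433) and was lost without any of the treated mice (adjusted p of 0.0574 to 0.0605). Its partner chains Col5a1 and Col5a2 differed by less than the thresholds. Col5a2 stood at 1383, 1177 and 942 CPM in senescent mice and at 2089, 2221 and 1659 CPM at 100 μg/mL, a difference of 0.77 ± 0.21 (adjusted p = 0.0523). The ratio of Col5a1 to Col5a2 in TPM was 1.52 to 1.66 in control mice, 1.36, 1.23 and 3.62 in senescent mice 4, 5 and 6, 0.841 to 0.902 at 100 μg/mL and 0.851 to 1.08 at 300 μg/mL.

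Col8a2, a network chain of the cornea, stood at 1.1, 1.86 and 0.094 CPM in control mice and 1.28, 0.474 and 1.36 CPM in senescent mice. It stood at 20.5, 19.4 and 13.9 CPM at 100 μg/mL and at 4.34, 15.3 and 21.4 CPM at 300 μg/mL, so all treated mice lay above all others and mouse 4 at 300 μg/mL was the lowest of them. Col8a2 rose by 4.09 ± 0.79 (adjusted p = 0.0145) and 3.70 ± 0.78 (adjusted p = 0.0294), the largest log2 fold changes of the 41 members at both doses. At 95.9% its sequence is nearly all single-transcript, and mouse 4 at 300 μg/mL was a library low in such genes (−0.99), while the deviation was 1.13 and 1.26 in mice 4 and 5 at 100 μg/mL. With the offsets for this share the rise was 3.69 and 3.67 (adjusted p = 0.0017 at both doses). The call was lost at 100 μg/mL without senescent mouse 5 (adjusted p = 0.059), senescent mouse 6 (0.0501) or treated mouse 4 (0.0526). At 300 μg/mL it held in 14 of 25 settings, with an adjusted p of 0.0715 with the mouse as a block, and was lost without control mouse 4, any of the senescent mice, mouse 4 at 100 μg/mL or treated mouse 5 or 6 (adjusted p of 0.05 to 0.14).

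Its partner chain Col8a1 stood at 83.5, 105 and 28.6 CPM in control, 138, 67.6 and 131 CPM in senescent, 335, 424 and 285 CPM at 100 μg/mL and 66.8, 305 and 368 CPM at 300 μg/mL. Mice at 100 μg/mL lay above all control and senescent mice, while mouse 4 at 300 μg/mL lay below every senescent mouse. The differences from senescent MEFs were 1.63 ± 0.55 (adjusted p = 0.114) and 1.14 ± 0.54 (adjusted p = 0.339), and 0.81 (adjusted p = 0.19) at 100 μg/mL with the offsets.

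Col14a1, which sits on the surface of fibrils, stood at 11.6, 12.7 and 15.7 CPM in control, 17, 20.6 and 21.2 CPM in senescent, 57, 52.4 and 234 CPM at 100 μg/mL and 80, 65.9 and 182 CPM at 300 μg/mL. All treated mice lay above all others, with mouse 6 the highest at both doses. Col14a1 rose by 2.55 ± 0.53 (5.84-fold, adjusted p = 0.0202) and 2.48 ± 0.53 (5.58-fold, adjusted p = 0.031). Without treated mouse 6 the rise was 1.48 (adjusted p = 0.061) and 1.90 (adjusted p = 0.177), and without senescent mouse 6 it was 2.68 (adjusted p = 0.0523) and 2.58 (adjusted p = 0.0726). The call was also lost without senescent mouse 5 at both doses (adjusted p = 0.0559 and 0.0675) and, at 300 μg/mL, without senescent mouse 4 (0.0684) or treated mouse 4 (0.0535).

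Col12a1, a related chain of higher level, stood at 1681, 2097 and 1922 CPM in control and at 1726, 2165 and 434 CPM in senescent mice, and at 3430, 3090 and 4517 CPM at 100 μg/mL and 4599, 3783 and 3548 CPM at 300 μg/mL. All treated mice lay above all others, and senescent mouse 6 lay far below the rest. With this library the differences were 1.35 ± 0.41 (adjusted p = 0.0811) and 1.46 ± 0.41 (adjusted p = 0.0934). Without it Col12a1 rose by 1.06 (adjusted p = 0.00982) and 1.08 (adjusted p = 0.0106), and with the offsets by 1.27 (adjusted p = 0.0065) and 1.25 (adjusted p = 0.00941). DESeq2, with all libraries, gave 1.43 (adjusted p = 0.0165) and 1.48 (adjusted p = 0.016), and the call was made in 5 of 26 settings at each dose. Col12a1 is described here because of senescent mouse 6 and was chosen after its values were seen, as were Col5a2, Col8a1, Plod2 and Pcolce2.

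Col15a1, a multiplexin of the basement membrane zone, stood at 30, 18.5 and 15.1 CPM in control and 30.4, 25.7 and 17.4 CPM in senescent mice. It stood at 4.13, 2.69 and 2.42 CPM at 100 μg/mL and at 4.54, 3.95 and 2.16 CPM at 300 μg/mL, far below every control and senescent mouse. Col15a1 fell by −2.99 ± 0.40 (adjusted p = 0.00264), or 7.94-fold, and by −2.79 ± 0.40 (adjusted p = 0.00463), or 6.90-fold. Without senescent mouse 6 the changes were −3.02 and −2.94, and over 26 settings they ran from −3.26 to −2.61 and from −3.10 to −2.52. In every group mouse 4 had the highest CPM and mouse 6 the lowest. This order did not hold in TPM, where control mouse 6 (27.4 TPM) was the highest control. The other multiplexin, Col18a1, differed by −0.12 ± 0.34 and −0.18 ± 0.34 (adjusted p = 0.892 and 0.869).

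Col7a1 stood at 139, 226 and 407 CPM in control, 134, 174 and 234 CPM in senescent, 41.9, 64.8 and 60.9 CPM at 100 μg/mL and 57.6, 64.3 and 52.9 CPM at 300 μg/mL. Treated mice lay below all others. Col7a1 fell by −1.69 ± 0.34 (3.24-fold, adjusted p = 0.0159) and −1.63 ± 0.34 (3.10-fold, adjusted p = 0.0264), and without senescent mouse 6 the values were −1.31 (adjusted p = 0.0947) and −1.35 (adjusted p = 0.102). The call was also lost without control mouse 5, senescent mouse 5 or any of the treated mice, with an adjusted p of 0.0509 to 0.15.

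Of the processing genes, Loxl3 passed the adjusted p at 100 μg/mL with a smaller fold, from 531, 460 and 482 CPM in senescent mice to 335, 269 and 285 CPM (−0.73 ± 0.18, adjusted p = 0.041, and 0.121 without senescent mouse 6). Pcolce2 stood at 6.26, 7.41 and 7.75 CPM in senescent mice, 3.91, 4.43 and 1.25 CPM at 100 μg/mL and 0.737, 3.7 and 1.82 CPM at 300 μg/mL. In TPM, mouse 5 at 100 μg/mL (7.16 TPM) lay above senescent mouse 6 (5.87 TPM). In CPM the treated and senescent groups did not overlap, and the differences were −1.16 ± 0.56 (adjusted p = 0.267) and −1.77 ± 0.57 (adjusted p = 0.138). With the offsets they were −1.93 (adjusted p = 0.0398) and −2.04 (adjusted p = 0.0453), and 91.0% of its sequence is single-transcript.

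Between 300 and 100 μg/mL, 0 of the 41 members were DEGs (0.00665% of all genes, that is 1 gene), 0 had an unadjusted p under 0.05 (0.625% of all genes), and DESeq2 called 0. The log2 differences ran from −0.67 ± 0.68 for Loxl1 to 0.33 ± 0.23 for Col2a1. The groups overlapped for all 41 members, against 7.54% of all genes without overlap.

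Against control MEFs, which differ by both etoposide and Fucoidan-FV, 16 members were DEGs with 100 μg/mL, 9 of them higher and 7 lower, where 19.6% of all genes were DEGs (10.3% higher and 9.38% lower). With 300 μg/mL there were 17, of which 10 were higher and 7 lower, where 18% of all genes were DEGs (9.87% higher and 8.11% lower). Lox rose by 1.10 ± 0.30 (adjusted p = 0.0168) and 1.29 ± 0.31 (adjusted p = 0.00788). Plod2, the lysyl hydroxylase of the telopeptides, rose by 1.24 ± 0.34 (adjusted p = 0.0164) and 1.44 ± 0.34 (adjusted p = 0.00801) from 138, 201 and 360 CPM in control to 419, 456 and 778 CPM at 100 μg/mL and 655, 528 and 715 CPM at 300 μg/mL. Neither Lox nor Plod2 was a DEG in senescent against control MEFs or at either dose against senescent MEFs. Serpinh1 fell by −1.06 ± 0.20 at 100 μg/mL (adjusted p = 0.00189) and by −0.87 ± 0.20 at 300 μg/mL (adjusted p = 0.00704). The lowest at 100 μg/mL were the following, with the value at 300 μg/mL second. Col15a1 differed by −2.78 and −2.58, Col5a3 by −2.39 and −2.62, Col2a1 by −2.34 and −2.01, Col6a3 by −2.26 and −2.03 and Col7a1 by −2.20 and −2.14, each of them a DEG.

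Some members are neighbors in the genome. Col4a1 and Col4a2 lie head to head on chromosome 8 and their annotated bounds overlap by 356 bases. In control mice Col4a1 stood at 2117, 2812 and 3783 CPM, in senescent mice at 2494, 3416 and 2777 CPM, at 100 μg/mL at 1524, 1807 and 2480 CPM and at 300 μg/mL at 1870, 2103 and 2432 CPM. For Col4a2 these were 639, 667 and 460, then 626, 513 and 711, then 651, 790 and 538, and then 329, 660 and 598 CPM. Neither was a DEG, with differences of −0.58 ± 0.24 for Col4a1 and 0.10 ± 0.26 for Col4a2 at 100 μg/mL (adjusted p = 0.205 and 0.883). In TPM their ratio was 1.04 to 2.09 in the 12 mice.

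Col4a6 and Col4a5 lie head to head on chromosome X with 1281 bases between them. Col4a5 stood at 86.9, 129 and 144 CPM in control, 203, 265 and 90 CPM in senescent, 191, 203 and 286 CPM at 100 μg/mL and 262, 244 and 269 CPM at 300 μg/mL, with senescent mouse 6 again the low one. Col4a6 stood at 3.94, 5.72 and 3.25 CPM at 100 μg/mL and at 3.99, 4.13 and 2.86 CPM at 300 μg/mL. The difference of senescent from control MEFs was 0.63 ± 0.32 for Col4a5 (adjusted p = 0.237), beside the 1.71 of Col4a6. Against control MEFs, Col4a5 rose by 1.11 ± 0.32 at 300 μg/mL (adjusted p = 0.0228), and Col4a6 rose by 2.33 ± 0.50 and 2.09 ± 0.50 (adjusted p = 0.004 and 0.00792).

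Col3a1 and Col5a2 lie tail to tail on chromosome 1 with 16713 bases between them, and Col6a2 and Col6a1 follow each other on 1 strand of chromosome 10. For 22 of the 41 members a gene on the opposite strand lies within the annotated bounds, and whether the counting used the strand is not given in the sources used here, so the reads of such pairs could have been divided between them.

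Other genes of the collagen pathway were read from lists written from general knowledge. Of 20 other collagen chains 13 were tested, and 1 was a DEG in senescent against control MEFs: Col10a1, the chain of hypertrophic cartilage, rose from a mean of 1.19 to 32.9 CPM (4.78 ± 0.77, adjusted p = 0.0015). At 100 and 300 μg/mL 0 of the 13 were DEGs (3 and 1 at an unadjusted p under 0.05), and DESeq2 called 1 and 0. Of 20 other folding, export and processing genes 18 were tested. Tmem38b, an ion channel of the endoplasmic reticulum, rose by 1.15 ± 0.34 (adjusted p = 0.0432) and Tll1, a relative of Bmp1, fell by −1.09 ± 0.31 (adjusted p = 0.0352) in senescent against control MEFs, and 0 were DEGs at either dose (2 at an unadjusted p under 0.05 at each, and DESeq2 called 0 and 0).

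Of 10 collagen receptors and uptake genes 8 were tested. The collagen-binding integrin chains Itga10 and Itga11 rose in senescent against control MEFs, by 1.91 ± 0.47 (adjusted p = 0.0179) and 1.39 ± 0.28 (adjusted p = 0.00581). With Fucoidan-FV, Itga11 rose from a mean of 340 CPM to 1001 CPM at 100 μg/mL (1.56 ± 0.28, adjusted p = 0.00956) and 1136 CPM at 300 μg/mL (1.74 ± 0.28, adjusted p = 0.0093). Itga1 rose from 31.1 to 89.5 CPM (1.53 ± 0.27, adjusted p = 0.00954) and to 78.4 CPM (1.34 ± 0.27, adjusted p = 0.0254). Itga1 and Itga11 are chains of collagen-binding integrins, and they were the 2 DEGs among the 8 tested genes of that list at each dose.

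Markers of other cells were low or moved as follows. Of the 10 fibroblast markers, 9 were higher and 1 lower in senescent against control MEFs, with 2 DEGs, both higher. At 100 μg/mL 4 were higher and 6 lower than in senescent MEFs. Here 2 were DEGs, both higher, and 1 was lower by adjusted p alone. At 300 μg/mL 6 were higher and 4 lower, with 0 DEGs (7 at an unadjusted p under 0.05). Smooth muscle markers, which MEFs also express, had counts for 6 of 6 in every group and summed to 10333 to 13001 TPM in control, 10535 to 12505 TPM in senescent, 6108 to 9786 TPM at 100 μg/mL and 7102 to 9534 TPM at 300 μg/mL, with 2 of 6 DEGs (lower) at each dose. Macrophage markers (6 of 6 with counts) summed to 0.26 to 4.01 TPM in control, 2.56 to 9.06 TPM in senescent, 7.61 to 15.8 TPM at 100 μg/mL and 4.61 to 12.7 TPM at 300 μg/mL. Osteoblast markers (4 to 6 of 6 with counts) summed to 6.75 to 27.8 TPM over all mice, with Bglap at 0 in control and treated MEFs. Endothelial markers (5 or 6 of 6 with counts) summed to 0.77 to 1.23 TPM in control, 0.41 to 2.05 TPM in senescent, 2.82 to 6.52 TPM at 100 μg/mL and 1.74 to 3.92 TPM at 300 μg/mL, so the mice at 100 μg/mL lay above all control and senescent mice. Of the 4 that were tested, Tek was a DEG at 100 μg/mL, from a mean of 0.481 to 5.87 CPM (3.58 ± 0.90, adjusted p = 0.0446). Epithelial markers summed to 0 to 2.38 TPM and skeletal muscle markers to 0.01 to 4.77 TPM, with Myf5 at 0 in all groups. Their part in the collagen results was not tested.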

How the data were processed

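RNA of 13 MEF libraries was prepared with the TruSeq Stranded Total RNA kit, and the authors used FastQC 0.12.1, Trimmomatic, STAR 2.7.11b and RSEM 1.3.1 with GRCm39. The deposited values used here are RSEM's expected counts, its TPM and its length in bases (another unit) per gene and library. Whether strand was used in counting is not given in the sources used here.

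Expected counts were rounded, and the libraries 5(1) and 5(2) of control mouse 5 were summed, since they carry 1 mouse number. They differed by more than sampling noise (chi-square per gene 113, against 40.2 to 120 for the other control pairs). This left 3 mice in each of 4 groups. The study calls them independent biological replicates. Genes were filtered with filterByExpr (minimum count 10, total 15), scaled by TMM and tested in R 4.3.3 with edgeR 4.0.16's quasi-likelihood test in 1 fit of all groups without a block. P-values were adjusted by Benjamini-Hochberg over 15034 genes. A DEG is a gene whose log2 fold change lay beyond −1 or 1 at an adjusted p under 0.05. The study used DESeq2. The SE is the log2 fold change divided by the root of the F statistic. CPM were scaled by TMM. An exact permutation test of 3 against 3 mice could not go below 0.1 and was not used. In simulated data of 100 μg/mL against senescent MEFs with 14569 genes, 108 of 200 genes changed 4-fold (54%) were recovered, with 5 false calls. The simulated libraries had no shift by single-transcript share or length, so these rates need not hold for the real data.

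Alternatives were DESeq2 1.42.0, RLE factors, other filters, only the groups compared, other uses of libraries 5(1) and 5(2), the mouse as a block, offsets per gene and library, and leaving out each mouse. Mouse numbers are from the labels. The correlation of same-numbered mice, after their group mean was taken off, had a median of −0.05 in 18 pairs (−0.38 to 0.66), and 8 exceeded 0.1.

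Gene IDs were matched to GENCODE on GRCm39 (56310 of 57010, and 41 of 41 members). The members and lists were chosen with earlier results of these data known. Values per mouse are given for members that were DEGs in the 3 main comparisons, the 6 highest by mean TPM and the paired chains Col4a1, Col4a2, Col4a5 and Col4a6. Other members are given by range, or by name where the adjusted p alone passed, and genes of other lists where they were DEGs, at most 6 a list. Marker lists covered fibroblasts, chondrocytes, osteoblasts, skeletal muscle, smooth muscle, endothelium, epithelium and macrophages.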

Additional observations from a re-analysis of the deposited data

How the results depend on the processing

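Of the values of called genes under the alternatives, 101 of 125 (senescent against control), 165 of 199 (100 μg/mL) and 154 of 199 (300 μg/mL against senescent) kept their direction and call, the others lost the call, and 0 turned direction. With only the 2 groups compared in the fit, 2 members were called in senescent against control MEFs, 6 at 100 μg/mL and 4 at 300 μg/mL against senescent MEFs, in fits with fewer samples. Leaving out 1 mouse gave 3 to 5 members in senescent against control MEFs, lowest without control mouse 4 or senescent mouse 5. It gave 3 to 8 at 100 μg/mL, with 3 without treated mouse 6, 4 without senescent mouse 5 and 5 without senescent mouse 6 or treated mouse 4 or 5. It gave 2 to 8 at 300 μg/mL, with 2 without treated mouse 6, 3 without treated mouse 5, 4 without treated mouse 4 or senescent mouse 4 or 5 and 5 without senescent mouse 6. Against control MEFs it gave 15 to 17 and 15 to 19, and between the doses 0. The cause was not tested. With the mouse as a block, which pairs same-numbered mice, 4, 8 and 6 members were called in these 3 comparisons, 16 and 16 against control MEFs and 0 between the doses. In the 3 comparisons the block ended the calls of Col4a6 (senescent), Col3a1 and Col8a2 (300 μg/mL) and no other. DESeq2 called 5, 9 and 10 members, and the offsets 6, 10 and 9, or 7, 7 and 7 without senescent mouse 6, a setting chosen after seeing the data. For the settings of this section the share of all genes called is not given here, apart from DESeq2 at each dose. The counts therefore do not show whether members lost or gained calls more often than other genes. The median of all genes at 100 μg/mL against senescent MEFs was −0.02, or 0.07 in DESeq2 and −0.10 with the offsets, and against control MEFs it was 0.09, 0.17 and −0.15. As a percent of counts in place of TPM, the 24 chains took 1.72, 1.37, 2.18 and 1.91 in control, senescent, 100 μg/mL and 300 μg/mL MEFs. Depth limits the rare members, since libraries held 1 to 151 counts of Col4a6 and 2 to 655 of Col8a2.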
